A study of Rattus norvegicus with 6 samples.

Results

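Genes of the interferon response and of antigen processing were described in cultured rat cortical cells that had received Math2 or a control vector. A list of 37 genes was matched to the gene symbols of the array, and 36 of them had at least 1 probe set, out of 14217 genes with a single symbol. Xaf1 had none, and Ddx58 was found under its synonym Rig1. The 36 genes had 53 of the 31099 probe sets, and 35 genes with 48 probe sets were bright enough to be tested. Each gene is represented below by its probe set with the highest average signal.

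The study set out to find genes that Math2 acts on. Math2, now named Neurod6, is a transcription factor of neurons. The Math2 group holds 3 arrays of cultured cortical cells given 13.3 µg of a Math2 expression vector, and the control group holds 3 arrays of cells given 13.3 µg of a control vector. Cells of both groups also received 2.7 µg of a vector for a truncated nerve growth factor receptor (LNGFR), through which transfected cells were pulled out of the culture 24 h later, and their RNA was hybridized to Affymetrix rat expression arrays. The labels give neither the promoters of the vectors, nor the species of the Math2 sequence, nor the strain and age of the animals. All 6 arrays are therefore of transfected and selected cells, and untransfected cells were not analysed here. The labels number the samples 1 to 3 within each group without saying that these were separate cultures, so the p-values speak only of the spread among these arrays, which may be technical.

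Interferons are secreted when a cell senses viral nucleic acid. They bind receptors whose Janus kinases activate STAT proteins, and STAT and IRF transcription factors then switch on antiviral effectors, such as enzymes that degrade or modify viral RNA, through DNA elements named ISRE and GAS. Genes of the immunoproteasome, the TAP peptide transporter and MHC class I belong to the same programme and let a cell present viral peptides. In the brain, microglia and astrocytes respond strongly to interferon, and neurons also respond.

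Some of these promoters are shown because they carry the element that most of the effector genes share and that most genes lack. RefSeq promoters of the GRCr8 assembly were available for 27 listed genes. The core of the interferon-stimulated response element (ISRE) was searched as the letters GAAA, any 2 bases, and GAAA again, or TTTC, any 2 bases, and TTTC on the other strand. It occurred in the 250 bases before the start of 16 of the 27 genes (59.3%), against 3.41% of 33469 rat promoters. Capitals mark these letters in the windows below, which are written 5′ to 3′ on the strand of the gene.
Rsad2, chr6:48788243-48788282, minus strand: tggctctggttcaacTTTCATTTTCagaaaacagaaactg
Ifit3, chr1:241527267-241527306, plus strand: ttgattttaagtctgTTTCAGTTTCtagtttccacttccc
Oas1b, chr12:41395881-41395926, minus strand: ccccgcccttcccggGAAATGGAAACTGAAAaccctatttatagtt
Oas1a, chr12:41330410-41330455, plus strand: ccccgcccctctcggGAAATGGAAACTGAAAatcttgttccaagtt
Gbp2, chr2:234005681-234005720, plus strand: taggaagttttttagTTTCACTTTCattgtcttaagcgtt
Ifih1, chr3:67684003-67684042, minus strand: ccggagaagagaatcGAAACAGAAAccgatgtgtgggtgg
Irf7, chr1:205800068-205800107, minus strand: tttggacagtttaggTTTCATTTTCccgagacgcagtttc
Tap1, chr20:4668640-4668679, minus strand: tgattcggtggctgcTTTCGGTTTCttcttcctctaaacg
B2m, chr3:129549165-129549204, plus strand: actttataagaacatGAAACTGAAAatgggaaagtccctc

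The letters began 147 bases before the start of Rsad2, 44 before Ifit3, 59 before Oas1b, 41 before Oas1a, 31 before Gbp2, 59 before Ifih1, 69 before Irf7, 121 before Tap1 and 150 before B2m. Oas1a and Oas1b, neighbouring genes of the 2'-5' oligoadenylate synthetase family, shared overlapping copies of the letters, so the capitals run on across both copies. Such overlapping copies were found in 4 of the listed genes (Socs1, Oas1a, Oas1b and Bst2). By role, 10 of 12 effectors with a promoter held the letters, as did 3 of 5 antigen processing genes and 3 of 10 sensor and signalling genes. The letters of the gamma-activated sequence (GAS), TTC, any 3 bases and GAA, read the same on both strands. They occurred in 7 of 27 genes (25.9%) and in 7.67% of all promoters, and they overlapped the ISRE letters in 1 gene, Bst2. A match describes the letters only, and 1 of the effectors that differed most between the groups, Oasl, had no match in this window.

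The deposited signals were scaled to a common mean by the authors, and the array medians were 102 to 120. The hybridization controls, spiked in at fixed amounts, averaged 4897 ± 1626 on the Math2 arrays and 2312 ± 366 on the control arrays (SD, n = 3 each, of the geometric mean over 18 probe sets; two-sided exact permutation p = 0.1, the smallest that 3 against 3 arrays allow). Among the 186 brightest tested probe sets (1%), 185 were higher with Math2, with a median log2 difference of 0.43. The Neurod6 probe set had signals of 312, 167 and 1546 on Math2 arrays 1, 2 and 3 and of 386, 207 and 973 on control arrays 1, 2 and 3. It was high on the arrays numbered 3 in both groups, and it checks nothing about the labels, since the transfected sequence is not given. Differences below are on the log2(signal + 7.42) scale, Math2 minus control, which understates the change of dim genes.

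Most of these genes had signals well above the array median in both groups. Of the 36 genes, 31 lay above the array median on all 6 arrays, against 59.1% of all 14217 genes, and 15 of the 17 effectors did so. The exceptions among the effectors were Ifit1 and Oas1b, both dim on some arrays. Isg15, a ubiquitin-like protein attached to other proteins during the interferon response, had signals of 15868, 12209 and 6393 on Math2 arrays 1, 2 and 3 and of 9541, 9538 and 5243 on control arrays 1, 2 and 3. B2m, the light chain of MHC class I, had 17049, 14943 and 9892 on the Math2 arrays and 10400, 13298 and 10022 on the control arrays. Their control signals alone are far above the array medians. By contrast Ifnb1, the gene of interferon beta, had only 62.7, 10.4 and 3.39 on the Math2 arrays and 21.3, 6.67 and 6.86 on the control arrays, and with Ifng it lay below the brightness filter of a mean log2 value of 6.07. The files hold no detection calls, so this does not show that the genes were silent.

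Between the groups, 25 of the 35 tested genes were higher on the Math2 arrays and 10 were lower, with a median log2 difference of 0.18, against 45.7% higher and a median of -0.031 over all 18625 tested probe sets. With quantile normalization the median of the members was 0.093, against -0.015 over all tested probe sets. Without control array 3 only 16 genes were higher. In limma no member was called at an adjusted p under 0.05 (0% of all tested probe sets were), and each had an adjusted p of 1.00. The unadjusted p was under 0.05 in 4 genes, Rsad2, Oasl, Oas1b and Ifit3, all higher with Math2, where 1.75% of tested probe sets were higher and 1.44% lower by that rule. With the replicate number as a block, which treats like-numbered arrays as pairs, still no member was called (0.0161% of tested probe sets were called higher and 0% lower). The smallest limma adjusted p among the members was then 0.184, of Rsad2. The groups did not overlap in 4 genes, Oasl, Oas1b, Ifih1 and Irf2, all with Math2 above control, where 3.7% of all tested probe sets lay above and 4.3% below without overlap. A difference of at least 2-fold was reached by Ifit3 and Oas1b on the higher side (0.655% of all) and by none on the lower side (0.8% of all).

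**Figure D1:**
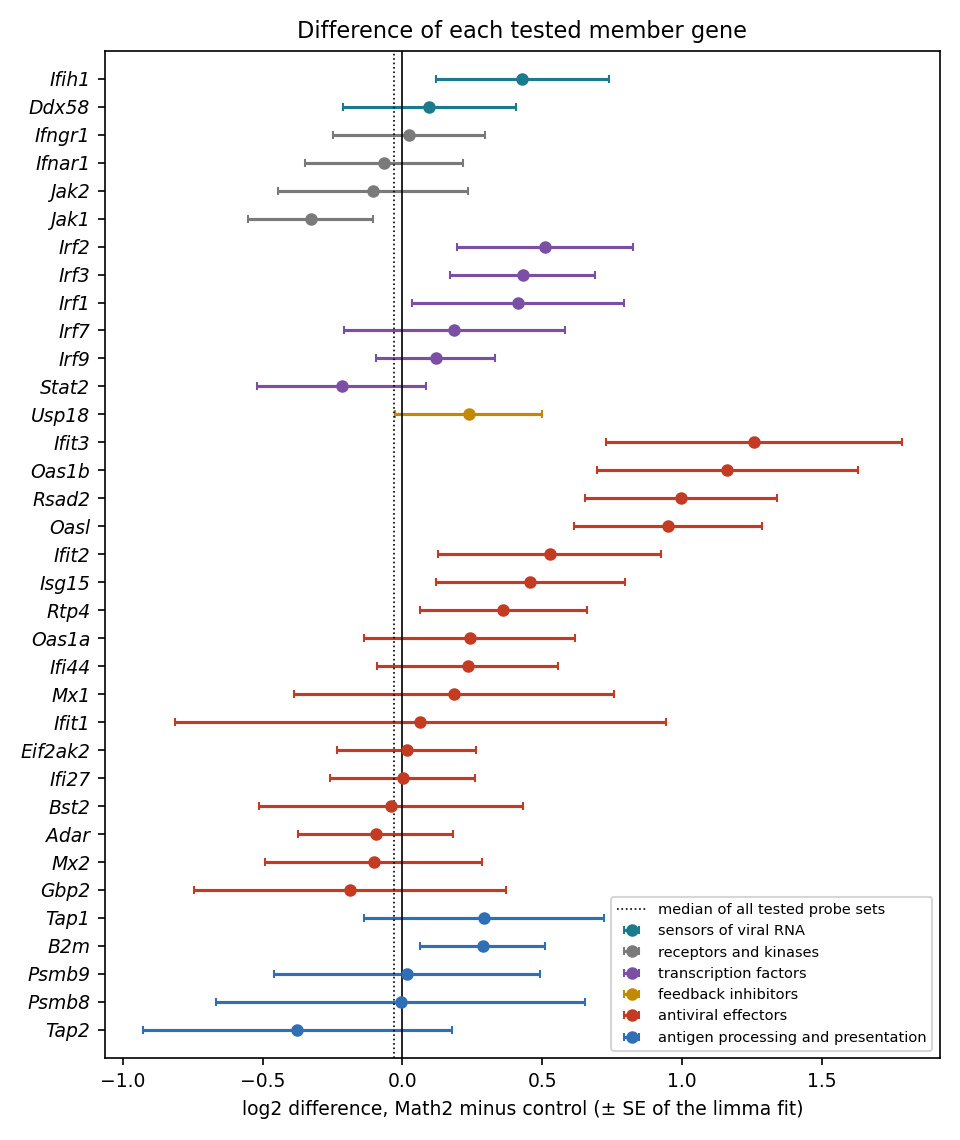
Log2 difference, Math2 minus control, of each of the 35 tested genes with the standard error of the limma fit, grouped by role. The widest differences are among the effectors, up to 1.26 for Ifit3, while receptors, kinases and antigen processing genes lie around 0; the dotted line is the median of all tested probe sets, -0.031.

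Antiviral effectors held the 4 largest differences among the tested members. Of 17 tested, 13 were higher and 4 lower, with a range of -0.19 to 1.26 and a median of 0.23, or 0.15 with quantile normalization. Leaving out control array 3 gave a median of 0.064, and leaving out control array 2 gave 0.58. With the replicate block 6 of the 17 had an unadjusted p under 0.05, namely Rsad2, Oasl, Ifit3, Oas1b, Isg15 and Ifit2, and all 6 were higher with Math2 (3.78% of all tested probe sets were higher and 3.92% lower by that rule). None of the other 18 members had one. Whether effectors and the other members differ was not tested. A change in the share of a responding cell type and a change in RNA per cell cannot be told apart in such bulk samples.

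Rsad2, or viperin, makes a chain-terminating nucleotide that stops viral RNA synthesis. Its signals were 19846, 12608 and 9216 on Math2 arrays 1, 2 and 3 and 7421, 9708 and 4017 on control arrays 1, 2 and 3. The groups overlapped, with control array 2 above Math2 array 3, while each Math2 array lay above the control array of the same number. The means were 13890 ± 5429 with Math2 and 7049 ± 2864 in the control (SD, n = 3 each), a log2 difference of 1.00 (SE 0.34), or 2-fold, with a limma adjusted p of 1.00 and of 0.184 with the block. Rsad2 is bright, and brighter probe sets were on the whole higher on the Math2 arrays, so its difference was also taken after quantile normalization, where it was 0.72.

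Oasl encodes a protein related to the 2'-5' oligoadenylate synthetases, which sense double-stranded RNA. It had signals of 8271, 4464 and 3019 on Math2 arrays 1, 2 and 3, all above the 2975, 2597 and 1987 of control arrays 1, 2 and 3. The log2 difference was 0.95 (SE 0.34, limma adjusted p = 1.00, or 0.206 with the block), and the margin between Math2 array 3 and control array 1 was narrow. Oas1b, of the same family, had signals of 224, 220 and 67.1 on the Math2 arrays and 66.2, 67 and 56.5 on the control arrays. Its log2 difference was 1.16 (SE 0.47; limma adjusted p = 1.00, or 0.494 with the block). Here Math2 arrays 1 and 2 were high, and Math2 array 3 was at the control level. Its control signals lie below every array median, so the size of that difference is uncertain. The brighter relative Oas1a, with an almost identical promoter element, had 2377, 3322 and 1306 on the Math2 arrays and 1420, 2935 and 1495 on the control arrays, a log2 difference of 0.24 with clear overlap. Probe sets of such close relatives may detect each other's transcripts.

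The following effectors were picked after their values were seen. Ifit3, of a family of proteins that bind viral RNA, had signals of 1524, 1520 and 778 on Math2 arrays 1, 2 and 3 and of 413, 1280 and 241 on control arrays 1, 2 and 3. Control array 2 was at the Math2 level, whereas the other control arrays were lower, and the log2 difference was 1.26 (SE 0.53; limma adjusted p = 1.00, or 0.235 with the block). Ifit2 had 10102, 4820 and 4137 on the Math2 arrays and 5095, 5802 and 2270 on the control arrays, a log2 difference of 0.53 (SE 0.40), with pair 2 going the other way. Its second, dimmer probe set had a log2 difference of 0.27. Isg15 was higher with Math2 in each pair, with differences of 0.73, 0.36 and 0.29, and averaged 0.46 (SE 0.34), which became 0.14 with quantile normalization.

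**Figure D2:**
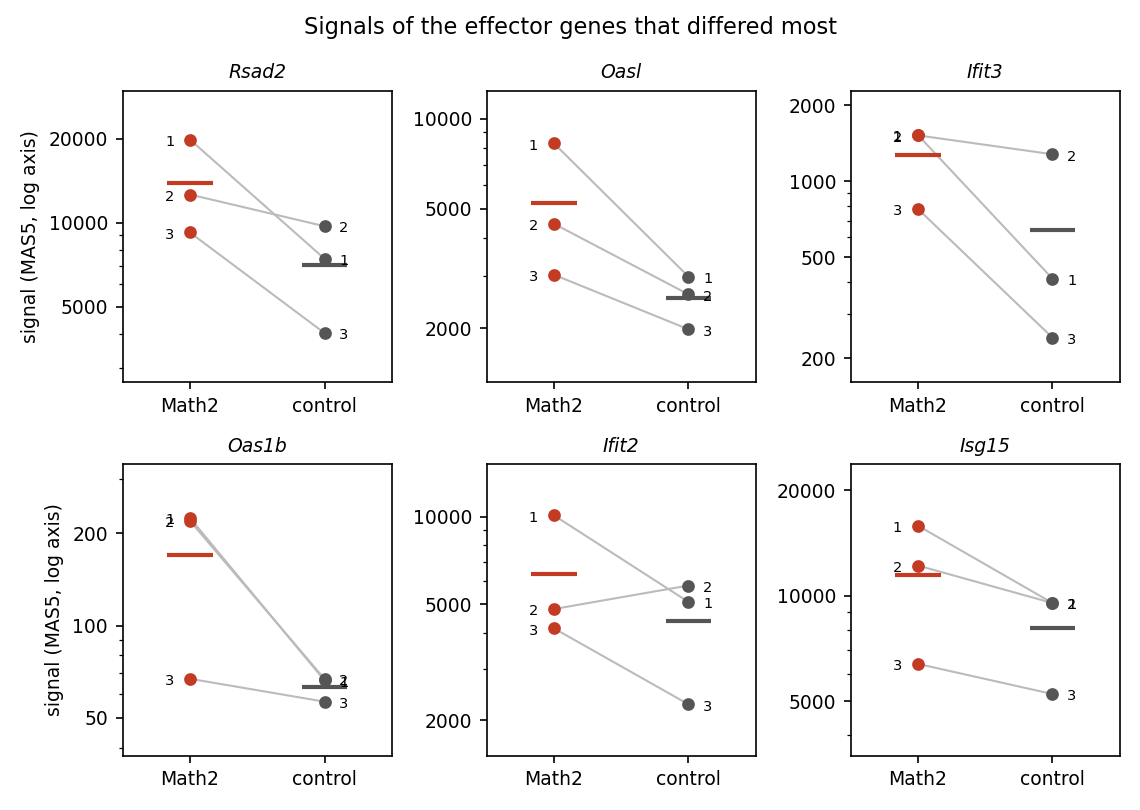
Signals of 6 effector genes on each array, on log axes, with Math2 arrays left and control arrays right. Digits give the replicate number, grey lines join arrays of the same number and bars are group means; Oasl and Oas1b show no overlap between the groups, and Ifit2 has a pair that runs the other way.

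The remaining 11 effectors spread around 0, with log2 differences of -0.19 to 0.36. Rtp4, a chaperone of receptors with antiviral activity, was at the upper end with 0.36 (SE 0.30), and Gbp2, a GTPase that attacks the membranes around intracellular pathogens, at the lower end with -0.19 (SE 0.56). Ifi44 stood at 0.23 and Mx1, a GTPase that blocks viral replication, at 0.18 (SE 0.57). The 3 lower ones besides Gbp2 were Adar, which edits double-stranded RNA, at -0.10, the brighter Mx2 probe set at -0.10, and Bst2, the tether that holds budding virus at the cell surface, at -0.04, which became 0.00020 with quantile normalization. Eif2ak2, the kinase PKR that halts translation, had 0.015, Ifit1 0.06 and Ifi27 0.00074, and the last became -0.17 with quantile normalization and -0.0025 with median centring. For these genes the differences are within their standard errors, apart from Rtp4.

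The sensors and signalling genes had a median log2 difference of 0.12 over 13 genes, with 9 higher and 4 lower, and of -0.087 without control array 3 and 0.31 without control array 2. Ifih1, or MDA5, which recognizes long double-stranded RNA, had signals of 213, 162 and 218 on Math2 arrays 1, 2 and 3, all above the 161, 133 and 138 of control arrays 1, 2 and 3. Math2 array 2 and control array 1 were nearly equal, and the log2 difference was 0.43 (SE 0.31; limma adjusted p = 1.00, or 0.791 with the block). Ddx58, or RIG-I, the sensor of short viral RNA ends, had 3951, 3623 and 2649 on the Math2 arrays and 3271, 4716 and 2007 on the control arrays, a difference of 0.10 (SE 0.31) with full overlap.

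Receptors and Janus kinases were lower in 3 of 4 genes, with a median of -0.086. That median was 0.018 without Math2 array 1, -0.0068 without control array 2, and -0.18 when each gene was taken as the median of its probe sets. Jak1, the kinase shared by both interferon receptor types, had 1748, 2049 and 2561 on Math2 arrays 1, 2 and 3 and 2520, 2477 and 2911 on control arrays 1, 2 and 3. Each Math2 array was below the control array of its number, and the log2 difference was -0.33 with an SE of 0.22 (limma adjusted p = 1.00, and 0.726 with the block), and a second Jak1 probe set had -0.80. Among all 35 tested members, only Jak1 and Tap2 were lower in each of the 3 pairs (15.2% of all tested probe sets).

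The representative probe sets of the interferon receptors had differences near 0. Ifnar1, a chain of the type I receptor, had 255, 275 and 228 on the Math2 arrays and 251, 300 and 245 on the control arrays, a log2 difference of -0.07 (SE 0.28). It had 6 probe sets, of which 5 were tested and differed in sign. The lowest of these read 12.3, 104 and 49.1 on the Math2 arrays against 67.3, 171 and 180 on the control arrays, a log2 difference of -1.45 with an SE of 0.62 (limma adjusted p = 1.00, and 0.364 with the block), while another had 0.36. Ifngr1, the ligand-binding chain of the interferon gamma receptor, had 706, 922 and 868 on the Math2 arrays and 712, 1083 and 696 on the control arrays, a difference of 0.02. Jak2, the kinase of that receptor, had a difference of -0.10, from 90.4, 143 and 148 on the Math2 arrays and 121, 149 and 135 on the control arrays.

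Transcription factors of the response were higher in 5 of 6 genes, with a median log2 difference of 0.30, which was 0.10 without Math2 array 1 and 0.54 without Math2 array 3. Irf2, which competes with Irf1 for the same sites, had 312, 246 and 254 on Math2 arrays 1, 2 and 3, above the 208, 227 and 137 of control arrays 1, 2 and 3. Its log2 difference was 0.51 (SE 0.32; limma adjusted p = 1.00, or 0.715 with the block), and its other 2 probe sets were below the brightness filter. Irf3, activated by the sensors without new transcription, had 1667, 1447 and 1111 on the Math2 arrays and 1249, 868 and 1002 on the control arrays, a difference of 0.43 (SE 0.26; limma adjusted p = 1.00, or 0.666 with the block). It was higher in each of 3 pairs although the groups overlapped.

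Irf1 had 1009, 936 and 429 on the Math2 arrays and 461, 816 and 453 on the control arrays, a log2 difference of 0.41 (SE 0.38), with a range of 0.059 to 0.80 over the alternatives. Irf7, which amplifies interferon production, had 3296, 2855 and 1513 on the Math2 arrays and 1874, 3785 and 1361 on the control arrays, a difference of 0.19 (SE 0.39). Irf9 is the DNA-binding subunit of a complex, with Stat2, that binds ISREs. It had 4074, 3384 and 3191 on the Math2 arrays and 3867, 3080 and 2881 on the control arrays, a difference of 0.12 (SE 0.21). Its partner Stat2 was lower, at -0.22 (SE 0.30), while a second Stat2 probe set of similar brightness had -0.031 (SE 0.28).

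Of the feedback inhibitors, Usp18, which removes Isg15 from proteins and blocks the type I receptor, had 8148, 6475 and 4436 on the Math2 arrays and 5093, 6742 and 4160 on the control arrays. Its log2 difference was 0.24 (SE 0.26), and 0.017 to 0.47 over the alternatives. Socs1, an inhibitor of Janus kinases, was below the brightness filter, with 67.1, 33.8 and 93.9 on the Math2 arrays and 36.5, 65.2 and 80.1 on the control arrays. It was dim in both groups and was not tested.

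Antigen processing genes lay on both sides of 0, with 3 of 5 higher and 2 lower. The median log2 difference was 0.018, and its sign depended on the arrays used, with -0.30 when control array 3 and 0.53 when control array 2 was left out. Psmb8 and Psmb9 encode catalytic subunits of the immunoproteasome, the form of the proteasome that interferon induces. Psmb9 had 1462, 1407 and 565 on Math2 arrays 1, 2 and 3 and 787, 2127 and 669 on control arrays 1, 2 and 3, a difference of 0.02 (SE 0.48). Psmb8 had 1029, 1259 and 267 on the Math2 arrays and 486, 1910 and 378 on the control arrays, a difference of -0.01 (SE 0.66), which became 0.047 with quantile normalization. In both genes Math2 array 1 was about level with Math2 array 2, whereas control array 2 was far above the other control arrays.

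Tap1 and Tap2 form the transporter that carries peptides into the endoplasmic reticulum, and Tap1 lies head to head with Psmb9 in the genome. The brighter Tap1 probe set had 831, 1375 and 619 on the Math2 arrays and 625, 1378 and 444 on the control arrays, a difference of 0.29 (SE 0.43), and its other probe set had -0.15. Tap2 was dim on most arrays, with 52.9, 171 and 51.3 on the Math2 arrays and 68.5, 212 and 75.1 on the control arrays, a difference of -0.38 (SE 0.55). B2m had a difference of 0.29 (SE 0.22), which became -0.08 with quantile normalization, so its direction depends on the scaling.

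Within the numbered pairs the differences were unequal. All 35 genes had a median log2 difference of 0.50 in pair 1, -0.049 in pair 2 and 0.15 in pair 3, with 30, 15 and 20 genes higher on the Math2 array (47.9%, 51.3% and 45.5% of all tested probe sets). The effectors had medians of 0.73, 0.096 and 0.29 in pairs 1, 2 and 3. Antigen processing genes had 0.71 in pair 1, but -0.30 in pair 2 and -0.24 in pair 3, and only 1 of 5 was higher in each of the last 2 pairs. Receptors and kinases had -0.20, -0.18 and 0.015, and all tested probe sets had -0.026, 0.012 and -0.054. The median of these genes was thus highest in pair 1. The hybridization controls were also most unequal there, at 6773 on Math2 array 1 and 2476 on control array 1. They were at 4044 and 1893 in pair 2 and at 3875 and 2566 in pair 3. The ratio of the 3' to the 5' Gapdh control, given below, was highest on control array 1, at 13.8. Whether these array measures bear on the pair differences was not tested. Leaving out 1 array moved the median of all members to -0.059 (control array 3), 0.043 (Math2 array 2), 0.42 (control array 2) or 0.46 (Math2 array 3), so single arrays of either group set its size, and control array 3 its sign.

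**Figure D3:**
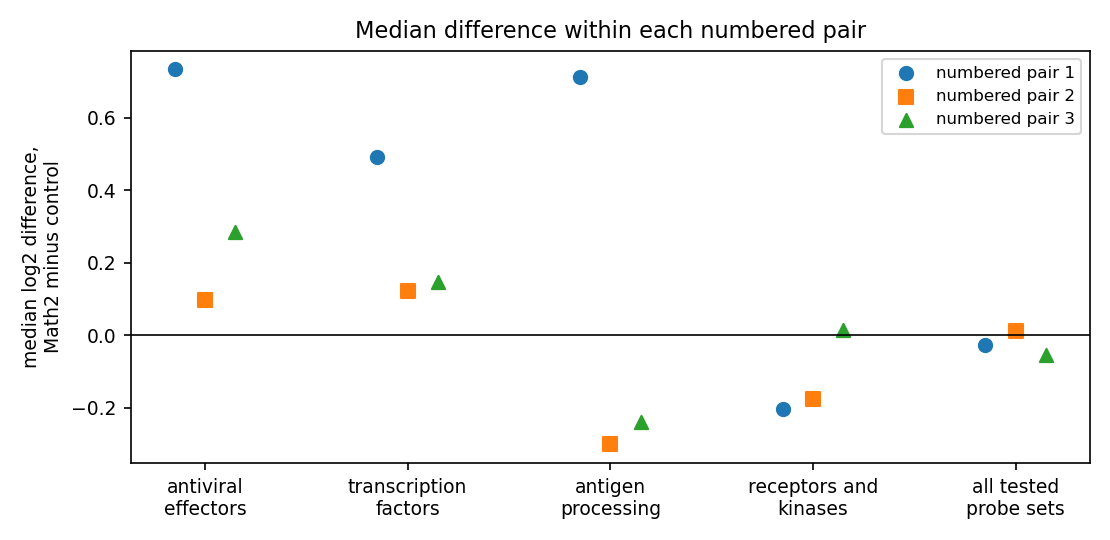
Median log2 difference, Math2 minus control, within each numbered pair, for 4 role groups and for all tested probe sets. Pair 1 gives the highest median for effectors (0.73) and antigen processing genes (0.71), whereas antigen processing genes are below 0 in pairs 2 and 3.

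Of the 35 genes, 12 kept their direction in all 3 pairs, 10 of them higher (13.1% of all tested probe sets) and 2 of them, Jak1 and Tap2, lower (15.2%). Among them Rsad2 had log2 differences of 1.42, 0.38 and 1.20 in pairs 1, 2 and 3, and Oasl had 1.47, 0.78 and 0.60. Oas1b had 1.65, 1.61 and 0.22, and Ifit3 had 1.87, 0.25 and 1.66. Psmb8, with 1.07, -0.60 and -0.49, and Psmb9, with 0.89, -0.59 and -0.24, turned sign between pairs. When pair 2 was left out and the block kept, Ifit3 (difference 1.76, limma adjusted p = 1.17e-04), Rsad2 (1.31, adjusted p = 1.97e-04) and Oasl (1.04, adjusted p = 0.0275) were called. That fit rests on 4 arrays and called 114 probe sets in all, against 3 with all pairs and the block. Pair 2 held the smallest differences of Ifit3 and Rsad2, so leaving it out favours their calls. No member was called when pair 1 or pair 3 was left out instead.

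The replicate number took a larger share of the variance than the vector did, in these genes as in all tested probe sets. A limma test of the number across both groups, chosen after the values were seen, called 6 of 35 genes (3.5% of all tested probe sets were called). They were Mx1 (adjusted p = 0.00838), Gbp2 (0.0142), Psmb8 (0.018), Isg15 (0.0211), Ifit1 (0.0298) and Tap1 (0.0314). An unadjusted p under 0.05 was reached by 23 of 35 genes (21.8% of all). Without Math2 array 3 only 1 gene was called, and 8 to 15 were without any other single array. At the median gene, the number took 77.1% of the variance over the 6 arrays and the vector 7.37%, against 55.5% and 9.74% over all tested probe sets. The number took more than the vector in 28 of 35 genes, a share near the 80.7% of all tested probe sets. The number has more levels than the vector, so it takes a larger share even where neither has an effect.

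The arrays numbered 2 had the highest mean in 23 of 35 genes (39.2% of all tested probe sets), among them all 5 antigen processing genes and 10 effectors. Those numbered 1 were highest in 11 genes (29.2%) and those numbered 3 in 1 (31.6%). The arrays numbered 3 had the lowest mean in 28 of 35 genes (30.9% of all), those numbered 1 in 6 (36.9%) and those numbered 2 in 1 (32.1%). Mx1 had 5106, 3663 and 1556 on Math2 arrays 1, 2 and 3 and 3606, 5316 and 1033 on control arrays 1, 2 and 3, so both arrays numbered 3 were low. Gbp2 had 2097, 2302 and 652 on the Math2 arrays and 1432, 3684 and 881 on the control arrays, with the same low array in each group. Ifit1 ran differently, with 37.2, 128 and 109 on the Math2 arrays and 8.9, 255 and 136 on the control arrays, lowest on the arrays numbered 1.

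**Figure D4:**
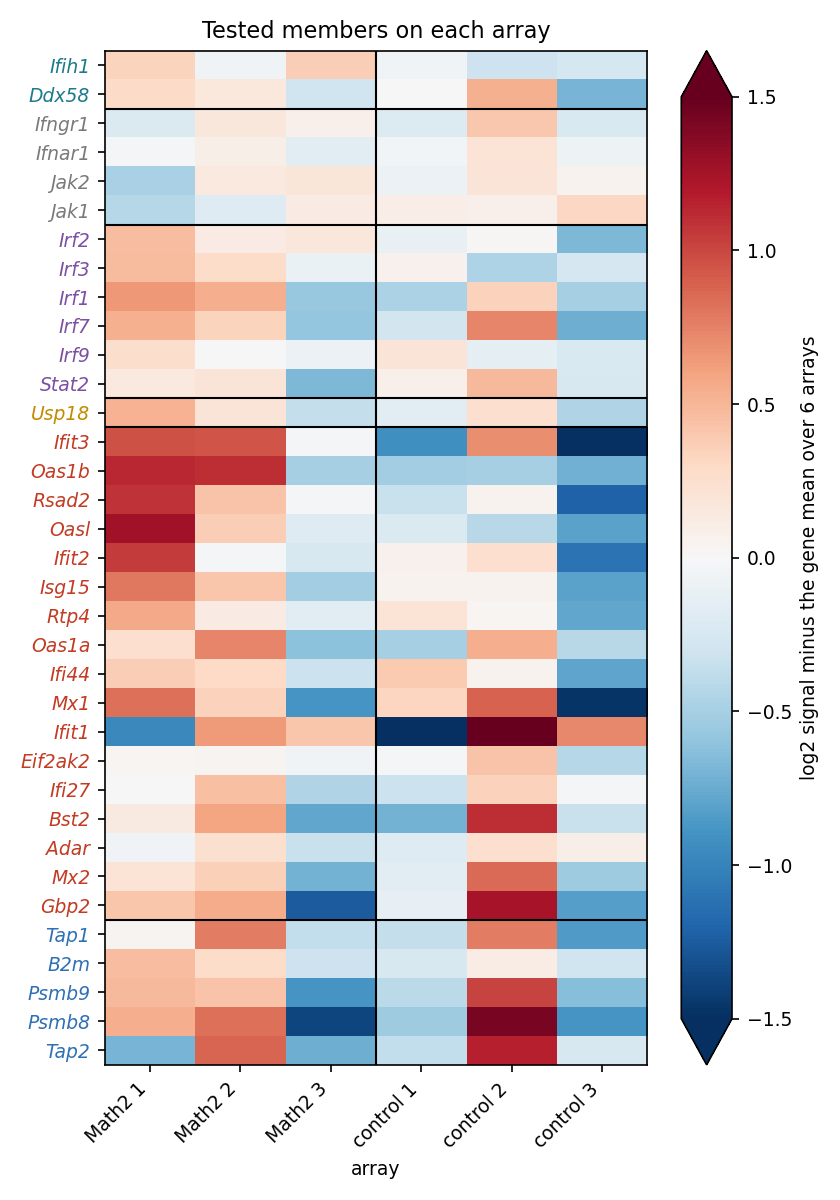
Log2 signal of each tested gene on each array minus its mean over the 6 arrays, with Math2 arrays left of control arrays and genes grouped by role. Most effectors and antigen processing genes are below their mean on Math2 array 3 and control array 3, and 4 of the 5 antigen processing genes are highest on control array 2, the exception being B2m, which is highest on Math2 array 1.

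Signals of the members were correlated across the arrays. Over 6 arrays the median Pearson correlation of log2 signals was 0.587 among the 595 pairs of the 35 genes, with 489 pairs above 0. It was 0.802 among the 5 antigen processing genes, where all 10 pairs were above 0, and 0.619 among the 17 effectors, where 125 of 136 were. Receptors and kinases had 0.412. These are descriptions, since the points are the same 6 arrays with a shared scaling and amplification. No such value was taken for other probe sets, so the correlations are not shown to be particular to these genes.

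Summed signals of several marker lists, among them those of neurons and astrocytes, also went with the number. The summed signal of 6 neuron markers was 5750, 5351 and 15572 on Math2 arrays 1, 2 and 3 and 7287, 5006 and 11773 on control arrays 1, 2 and 3, highest on the arrays numbered 3, where most of the interferon genes were lowest. Most of the neuron sums came from Stmn2 and Map2. Map2 did not follow in the control group, with 3557 on control array 1 against 3271 on control array 3. The 6 astrocyte markers summed to 18822, 21962 and 11716 on the Math2 arrays and 16643, 17315 and 13315 on the control arrays, lowest on the arrays numbered 3. Most of these sums came from Slc1a3, with 14623, 15186 and 9139 on the Math2 arrays and 13328, 11734 and 9178 on the control arrays. Other markers did not all follow, and Gfap was lowest on control array 1 (2063, against 3202 on control array 3). The part of neurons or astrocytes in the interferon signals was not tested. The 8 markers of microglia and macrophages were all dim, with none bright enough to be tested, and summed to 278, 223 and 204 on the Math2 arrays and 302, 292 and 357 on the control arrays. Each Math2 sum thus lay below each control sum. Of the 8 markers, 2 did so singly, Tyrobp and Cd68, by narrow margins at dim signals. Tyrobp had 31.6 on Math2 array 1 against 34.9 on control array 1. Cd68 had 61.9 on Math2 array 2 against 71.2 on control array 3. The share of 4.3% over all tested probe sets is of brighter probe sets, so it is not a like background for these markers. By log2 difference 5 of the 8 were lower with Math2 and 3 higher, and none rose above the median of any array. The part of these cells in the interferon signals was not tested either. Summed markers of the oligodendrocyte lineage ran from 6791 to 9861 on the Math2 arrays and from 6195 to 10508 on the control arrays, those of endothelial and mural cells from 410 to 918 and from 355 to 804, those of fibroblasts from 2894 to 4756 and from 3126 to 5091, and 2 measured T and B cell markers from 33.7 to 104 and from 59.6 to 98.7. The ranges of these last 4 lists overlapped between the groups. Endothelial and mural sums were highest on the arrays numbered 3, at 918 and 804. Fibroblast sums were lowest on the arrays numbered 2, at 2894 and 3126. The sums of the oligodendrocyte lineage and of T and B cells had no extreme on the same number in both groups. Singly, Pdgfrb lay above control, at 147, 159 and 293 on the Math2 arrays against 62.9, 37.2 and 54.8 on the control arrays. Its log2 difference was 1.77 (SE 0.39, and limma adjusted p = 0.198 with the block), while its other probe sets overlapped. Col1a1 lay below control, with 466, 419 and 485 on the Math2 arrays and 498, 492 and 648 on the control arrays. Of all tested probe sets, 3.7% lay above and 4.3% below without overlap. The ratio of the 3' to the 5' Gapdh control, which is high where transcripts are short, was 8.48, 6.0 and 8.14 on Math2 arrays 1, 2 and 3 and 13.8, 3.74 and 5.04 on control arrays 1, 2 and 3, lowest in each group on the array numbered 2.

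The dimmer Mx2 probe set followed the number most of all. It read 49.9, 2753 and 36.9 on Math2 arrays 1, 2 and 3 and 29.6, 2662 and 36.6 on control arrays 1, 2 and 3. Both arrays numbered 2 were high and the other 4 were below the array median, so the number took 99.6% of its variance (limma adjusted p = 5.51e-06 for the number). The lower of the 2 high arrays was 53.3 times the highest of the other 4, the widest gap of this kind among all tested probe sets, of which 2 reached 10 times. The brighter Mx2 probe set read 1772, 1974 and 942 on the Math2 arrays and 1372, 2785 and 1067 on the control arrays, with a gap of 1.11 times. The probe sets of this gene thus disagree. Between Math2 and control neither passed in limma, with log2 differences of 0.23 (SE 1.75) for the dimmer and -0.10 (SE 0.39) for the brighter one.

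**Figure D5:**
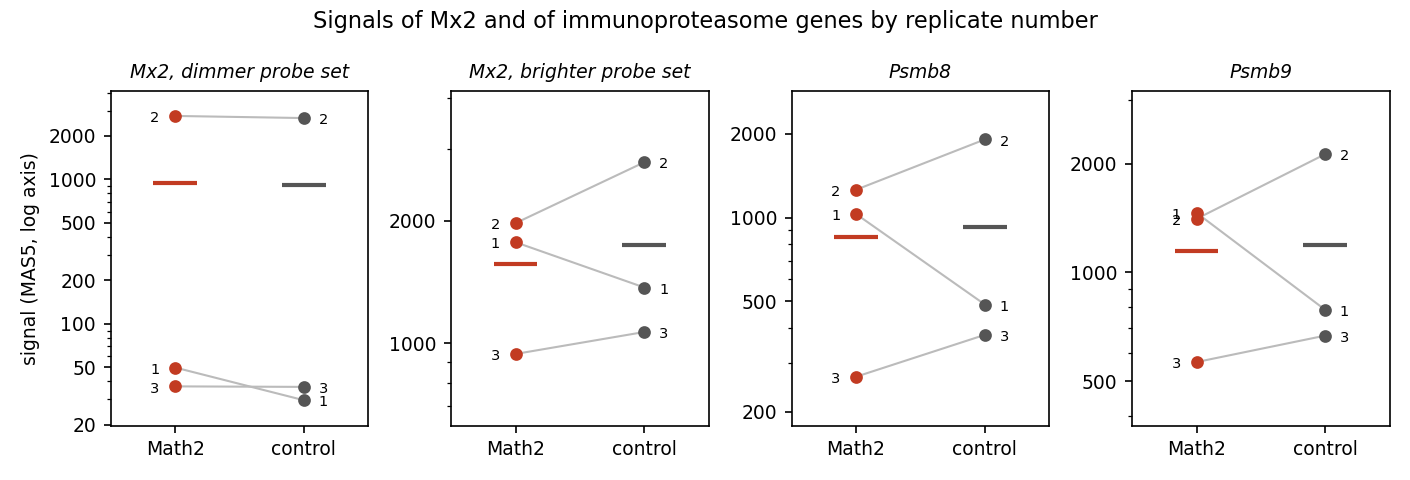
Signals of both Mx2 probe sets, Psmb8 and Psmb9 on each array, on log axes, with Math2 arrays left and control arrays right. Digits give the replicate number, grey lines join arrays of the same number and bars are group means; the dimmer Mx2 probe set is at 2753 and 2662 on the arrays numbered 2 and at most at 49.9 on the other 4.

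Genes of the same pathways outside the list were tested in the same fit, and 0 of them were called by limma with or without the block. Of 27 other interferon-induced genes tested, 15 were higher and 12 lower, and the median log2 difference was 0.048. Over all tested probe sets 45.7% were higher. The chemokine gene Cxcl10 had 3522, 3002 and 2227 on Math2 arrays 1, 2 and 3, all above the 1229, 2110 and 810 of control arrays 1, 2 and 3, a difference of 1.16 (SE 0.34; limma adjusted p = 1.00, or 0.181 with the block). Isg20, an exonuclease of viral RNA, had 1152, 1449 and 1025 on the Math2 arrays, above the 725, 897 and 742 of the control arrays, a difference of 0.60 (SE 0.25). Zbp1, a sensor of Z-form nucleic acid, had 154, 194 and 55.1 on the Math2 arrays and 53.9, 85.9 and 15.2 on the control arrays, a difference of 1.32 (SE 0.60) from a dim control level. In all 3 pairs, 3 of the 27 genes were higher and 4 lower (13.1% and 15.2% of all tested probe sets), shares near those of all tested probe sets. On the lower side, and chosen after their values were seen, Parp14 had 369, 666 and 288 on the Math2 arrays and 551, 1259 and 519 on the control arrays, a difference of -0.77 (SE 0.41; limma adjusted p = 1.00, or 0.412 with the block), and its second probe set -0.058. Sp100, a nuclear body protein, had 133, 149 and 96.6 on the Math2 arrays, below the 164, 168 and 175 of the control arrays, a difference of -0.42 (SE 0.32).

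Of 10 other signalling genes tested, 3 were higher and 7 lower, with a median of -0.15, beside 45.7% higher over all tested probe sets. Tbk1, the kinase that activates Irf3, had 1308, 1573 and 1907 on Math2 arrays 1, 2 and 3, all below the 2405, 2700 and 2262 of control arrays 1, 2 and 3. Its log2 difference was -0.63 (SE 0.23; limma adjusted p = 1.00, or 0.46 with the block). The receptor chains Ifnar2 and Ifngr2 had 0.45 and -0.41. Of 13 other antigen processing genes, 7 were higher and 6 lower, with a median of 0.0017, among them the MHC class I gene RT1-CE16 with 0.45 and the chaperone Calr with 0.29. The MHC class II gene RT1-Ba had 28.7, 211 and 41.9 on the Math2 arrays and 155, 277 and 156 on the control arrays, a difference of -1.43 (SE 0.61; limma adjusted p = 1.00, or 0.351 with the block), and it too was highest on the arrays numbered 2.

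The promoter letters shown above split the tested members unevenly. The 14 genes with the ISRE letters had a median log2 difference of 0.24 and the 11 without them a median of 0.024. The split was not tested, and it coincides with role, since 10 of the 16 genes with the letters are effectors. Within the genes shown, Rsad2, Ifit3 and Oas1b had differences of 1.00, 1.26 and 1.16, whereas Oas1a, Irf7 and Gbp2 had 0.24, 0.19 and -0.19, so the same letters stood before genes with large and with small differences.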

How the data were processed

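The deposited table gives, for 6 Affymetrix arrays, a linear intensity for each probe set. It was made with MAS5, per the submitters' processing notes, which give no version. Trimmed means (2% at each end) were 500 on every array, so the values deposited by the authors were used as scaled. The table holds no detection calls. Symbols came from the platform annotation (20826 probe sets with 1 symbol, 436 with several, 9780 with none). Ddx58 was matched through a RefSeq synonym.

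Signals were transformed to log2(signal + 7.42), the pseudocount being the 10th percentile of all values above 0. The 40th percentile of probe set means (6.07) was the lower limit for testing, which left 18625, and 57 control probe sets were left out. Groups were compared with limma 3.58.1 (intensity trend) in R 4.3.3, two-sided, and p-values were adjusted by Benjamini-Hochberg over the 18625, with calls under 0.05. The fit was run on simulated data with independent noise of the spread of the block fit and a number effect in few probe sets. In the real data the number took 55.5% of the variance at the median tested probe set. The simulation therefore does not show how the fit without the block behaves on these arrays. Deviations from the group means of like-numbered arrays correlated at 0.326, 0.476 and 0.372, above the limit of 0.1. On that ground a fit with the number as a block was added. Unlike numbers gave -0.46 to 0.104, and Math2 array 3 with control array 1, at 0.104, also passed that limit. Deviations cancel out within each group, so the like and unlike values are not independent of each other. The block and the pair differences thus rest on a choice made from these data, which the labels do not settle. The members and lists were chosen with earlier results of these data known. Signals on every array are given for the 3 members of each role with the smallest p, the 2 brightest, those called and those whose groups do not overlap. A further rule named, of each list of other pathway genes, the 3 with the smallest p. Precision is limited by 3 arrays per group. The alternatives were quantile normalization, median centring, other pseudocounts, filters and gene summaries, no intensity trend, and leaving out arrays or pairs.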

Additional observations from a re-analysis of the deposited data

How the results depend on the processing

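Over all alternatives 0 member probe sets were called between Math2 and control, except 3 without numbered pair 2 with the replicate block (range 0 to 3), where the spread rests on few arrays. Over all probe sets, 3 were called with the replicate block, 5 with the block and quantile normalization, and 0 to 114 when arrays or pairs were left out. Leaving out arrays or pairs gave 16 to 32 genes higher with Math2, and medians of -0.059 to 0.46 for all members, 0.026 to 0.58 for effectors, 0.10 to 0.54 for transcription factors, -0.17 to 0.018 for receptors and kinases and -0.087 to 0.31 for sensors and signalling genes. Quantile normalization gave a median of 0.093 for all members. Effects of the replicate number were called in 6 genes, and in 14 with quantile normalization, 12 with median centring, 10 with a pseudocount of 50, 15 with the stricter filter and 1 to 15 when an array was left out (394 to 1557 probe sets in all). Differences turned sign for Ifit1 with a pseudocount of 50 (-0.147), for Ifi27 with median centring (-0.0025) and, with quantile normalization with or without the block, for Ifi27 (-0.170), Bst2 (0.00020), Psmb8 (0.047) and B2m (-0.076). When arrays or pairs were left out, sign changes gave ranges of -0.22 to 0.39 for Ddx58, -0.13 to 0.022 for Ifnar1, -0.12 to 0.23 for Ifngr1, -0.22 to 0.11 for Jak2, -0.14 to 0.60 for Irf7, -0.39 to 0.064 for Stat2, -1.13 to 0.88 for Ifit1, -0.51 to 0.67 for Mx1, -0.39 to 0.30 for Mx2, -0.062 to 0.61 for Oas1a, -0.64 to 0.39 for Gbp2, -0.22 to 0.22 for Ifi27, -0.10 to 0.49 for Ifi44, -0.48 to 0.50 for Bst2, -0.19 to 0.24 for Eif2ak2, -0.24 to 0.065 for Adar, -0.54 to 0.71 for Psmb8, -0.42 to 0.53 for Psmb9, -0.059 to 0.75 for Tap1 and -0.90 to 0.12 for Tap2. Rsad2 (0.64 to 1.31), Oasl (0.56 to 1.29), Ifit3 (0.74 to 1.92) Oas1b (0.86 to 1.70), Isg15 (0.14 to 0.83), Ifit2 (0.11 to 0.93), Rtp4 (0.064 to 0.55), Ifih1 (0.33 to 0.56), Irf1 (0.059 to 0.80), Irf2 (0.30 to 0.71), Irf3 (0.28 to 0.59), Irf9 (0.016 to 0.24) and Usp18 (0.017 to 0.47) stayed above 0 in every setting run, and Jak1 (-0.47 to -0.20) below it. The cause of these shifts was not tested. Without detection calls, dim genes such as Oas1b, Tap2 and Ifit1 have uncertain folds.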

Other observations

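The gap of the second Mx2 probe set led to a look at other probe sets that were high only on the arrays numbered 2, chosen after the values were seen. Ttr, the thyroid hormone carrier transthyretin, which the choroid plexus makes in quantity, had signals of 402, 16527 and 114 on Math2 arrays 1, 2 and 3 and of 823, 11268 and 144 on control arrays 1, 2 and 3. The lower of its high arrays was 13.7 times the highest of the other 4. Sostdc1, a secreted inhibitor of BMP and Wnt signalling, followed with 4.50 times and Calml4 with 3.16 times. The MHC class I gene RT1-CE10 had 133, 648 and 135 on the Math2 arrays and 82.4, 832 and 235 on the control arrays, a gap of 2.75 times. What the replicate number stands for is not given in the labels, and whether these probe sets and Mx2 are linked was not tested.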
